A study of Mus musculus with 11 samples.

Results

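Granulosa cells of the ovary and Sertoli cells of the testis are counterpart supporting cells that arise from a common precursor of the early gonad. 10 genes that mark or set these 2 identities were followed here in mouse granulosa cells in which Akt1, a kinase of the insulin and growth factor pathway, had been knocked down. 7 of them stand for the ovarian side in this account: Foxl2, Nr5a1, Nr5a2, Wt1, Gata4, Gata6 and Esr2. Sox9, Fgf9 and Cldn11 stand for the testis side. They were chosen by symbol from the 24490 genes of the deposited count files, all 10 were found, and all 10 passed the filter on low counts.

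The cells were primary ovarian granulosa cells of RjOrl:SWISS mice, per the labels, with no age given. All 11 libraries came from cells transfected by Lipofectamine RNAiMax with 30 pmol of siRNA, the mix was removed after 5 h, the cells grew for 25 h more and RNA was taken at 30 h. 3 libraries (scramble) received a nontargeting scrambled siRNA, and 2 libraries each received pool 1, 2, 3 or 4 of Akt1 siRNAs. Each pool held 3 of 4 siRNAs, numbered 6 to 9 in the labels: 9 was left out of pool 1, 7 of pool 2, 8 of pool 3 and 6 of pool 4, where matching the pools of the protocol to those of the sample titles by number is an assumption made here. Any 2 pools therefore share 2 siRNAs, and the 4 pools share 1 scramble group. There was no untransfected group among the libraries used here, and the labels do not say whether replicates were separate cultures or animals, so that p-values measure the spread between these libraries, which may be technical.

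In the supporting cell, the forkhead factor FOXL2 and WNT signalling hold the ovarian programme, while SOX9 and the secreted growth factor FGF9 keep each other active in the testis. Loss of Foxl2 in adult mouse granulosa cells, or of Sox9 or Fgf9 in the embryonic testis, shifts supporting cells towards the opposite identity. WT1, GATA4, GATA6 and NR5A1 act in both sexes, first in the common precursor and later in the differentiated cells. In follicles, NR5A1 and NR5A2 switch on steroid-making genes and ESR2, the main oestrogen receptor of granulosa cells, carries the oestrogen signal.

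Between 23851293 and 32643158 reads fell in genes in a library. Levels are given as CPM, the reads of a gene scaled to the library's reads in genes, and differences as log2 ratios from edgeR's quasi-likelihood test with its standard error, called at a Benjamini-Hochberg adjusted p below 0.05 over all genes tested. Scramble replicate 1 was unlike the rest, with a median correlation of 0.947 to the other libraries, where each of the other 10 had 0.992 to 0.995. In its difference from the mean of scramble replicates 2 and 3, shorter genes were shifted upwards and longer ones downwards, with medians of 0.72 on the log2 scale in the shortest of 5 length classes and of -0.36 in the fourth. Differences of the 10 genes are therefore given with and without it, and its cause was not tested. Levels per kb, marker sums and the differences of other genes hold all libraries unless stated.

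The targeted gene, Akt1, separated the groups. It read 529, 428 and 399 CPM in scramble replicates 1 to 3, and 63.9 and 58.6 in pool 1, 52.7 and 55.1 in pool 2, 79.3 and 81.7 in pool 3, and 55.1 and 62.4 in pool 4. The pool means were 13.6%, 11.9%, 17.8% and 13.0% of the scramble mean, so that pool 3 kept the most Akt1 mRNA and no pool library overlapped with scramble.

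The labelled cell type was checked against its markers. All 12 granulosa markers were detected, meaning at least 1 read over the 11 libraries. All listed theca and stroma, endothelial, immune and oocyte markers were detected by that rule too, so detection alone cannot check the cell type. The granulosa markers summed to 4465 to 5681 CPM in scramble, and Inha, the inhibin alpha subunit, alone read 2128 to 3486 CPM there. Other defining markers were low in every library: Fshr, the FSH receptor, lay between 0.0669 and 0.367 CPM, Amh between 0.21 and 0.827 CPM and Cyp19a1, the aromatase, between 1.82 and 3.22 CPM. Of the 24 testis-side genes listed beside Sox9, Fgf9 and Cldn11, 17 passed the filter on low counts. Sry, the Y-linked testis switch, was at 0 in all 11 libraries and Dmrt1 did not exceed 0.0321 CPM. Others of the list were expressed: Dhh read 7.01 to 10.05 CPM, Sox8 4.42 to 8.36 and Nedd9 105 to 200 over all libraries. Clu, which is common to many epithelia, made up most of that list's summed level, with 3614 to 5961 CPM in scramble.

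Levels of different genes were compared per length, as CPM per kb of exon in the GENCODE M21 annotation. In scramble, Gata4 was highest with 158 ± 20.2 CPM per kb (SD, n = 3), followed by Foxl2 with 49.8 ± 10.8 and Nr5a1 with 37.6 ± 3.41. Wt1 (19.6 ± 2.94), Esr2 (19.0 ± 6.06) and Nr5a2 (17.7 ± 10.1) could not be ordered, since their libraries overlapped. Fgf9 (6.08 ± 0.794) and Gata6 (4.92 ± 0.425) came next, then Sox9 with 3.34 ± 0.81 and Cldn11 with 0.676 ± 0.24 CPM per kb. In the 8 pool libraries Fgf9 read 4.11 ± 0.397 and Gata6 5.23 ± 0.284 CPM per kb, so the order of these neighbours was opposite to scramble, with overlapping ranges of 3.71 to 4.91 and 4.79 to 5.65.

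**Figure D1:**
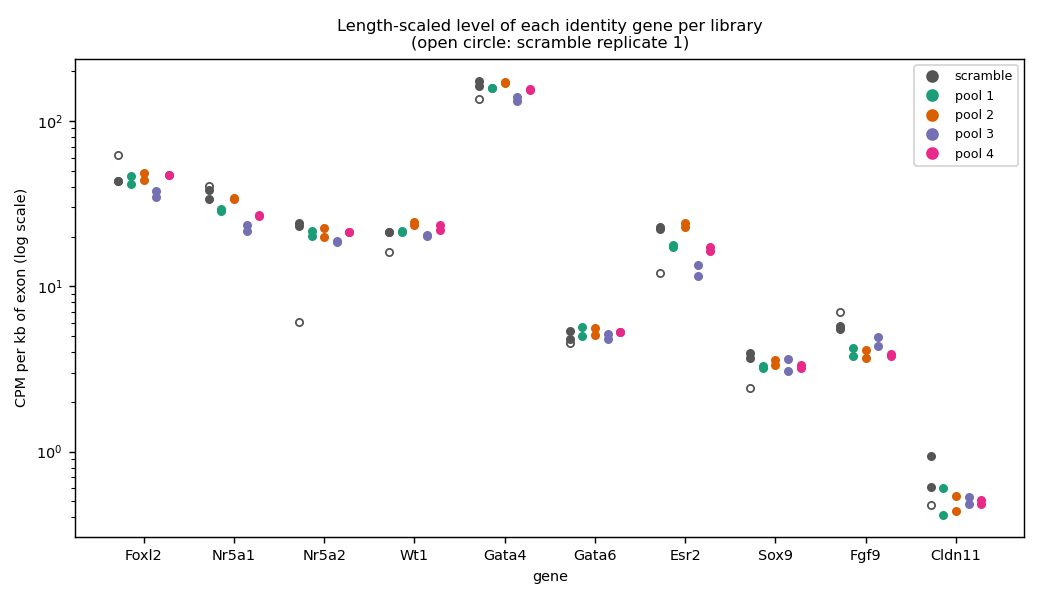
Points are single libraries, with the gene on the x axis and CPM per kb of exon on a log y axis; colours give scramble and the 4 Akt1 siRNA pools, and the open circle is scramble replicate 1. Gata4 lies near 158 CPM per kb in scramble and Cldn11 near 0.676, and Nr5a2 in scramble replicate 1 falls far below its other libraries.

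The ratio of Foxl2 to Sox9, 2 factors that stand on opposite sides, was 10.3 to 14.7 per kb in the 10 libraries other than scramble replicate 1, where it was 25.7. Scramble replicates 2 and 3 read 11.04 and 11.9, pool 3 read 11.3 and 10.3, and the other 6 pool libraries read 12.3 to 14.7, above both of these scramble libraries. Between NR5A receptors, the ratio of Nr5a1 to Nr5a2 per kb was 1.67 and 1.41 in scramble replicates 2 and 3, 1.68 and 1.52 in pool 2, and 1.15 to 1.45 in the other pools, against 6.66 in scramble replicate 1. Gata4 exceeded Gata6 by 26.8 to 36.3 times per kb in all 11 libraries.

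Upstream sequences are shown for Fgf9, which lay below scramble in all 8 pool libraries, for Esr2, which differed most between pools, and for Nr5a2, whose difference depended on 1 scramble library. They are the 250 bases before a transcript start, from RefSeq on build GRCm38.p6, 5′ to 3′ on the strand of the gene, and no exon of GENCODE M21 overlaps them; the Fgf9 window lies inside that annotation's gene, after an earlier start. Capitals mark letters that match 1 of 4 motifs searched on both strands. The NR5A half-site was spelled AAGGTCA, and the forkhead core was spelled GTAAACA. The GATA motif was spelled AGATAA, and the SOX motif was spelled ACAAAG.
Fgf9, chr14:58072436-58072685, + strand: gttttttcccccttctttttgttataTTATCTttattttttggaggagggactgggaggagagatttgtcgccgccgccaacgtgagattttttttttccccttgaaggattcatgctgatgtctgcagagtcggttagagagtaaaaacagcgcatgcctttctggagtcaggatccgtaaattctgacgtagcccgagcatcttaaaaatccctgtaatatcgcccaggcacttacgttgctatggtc
Esr2, chr12:76177260-76177509, - strand: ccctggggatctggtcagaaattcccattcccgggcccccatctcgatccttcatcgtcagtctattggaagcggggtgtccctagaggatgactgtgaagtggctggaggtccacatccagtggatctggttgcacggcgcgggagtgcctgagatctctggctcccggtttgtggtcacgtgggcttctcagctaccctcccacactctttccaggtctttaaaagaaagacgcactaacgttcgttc
Nr5a2, chr1:136960449-136960698, - strand: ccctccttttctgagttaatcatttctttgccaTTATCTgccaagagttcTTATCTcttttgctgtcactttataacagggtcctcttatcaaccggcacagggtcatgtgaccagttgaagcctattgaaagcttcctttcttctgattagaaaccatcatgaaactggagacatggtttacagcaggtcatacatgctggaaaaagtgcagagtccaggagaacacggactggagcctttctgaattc
The Fgf9 window held 1 GATA match, TTATCT on the strand of the gene, from 224 to 219 bases before the start. The Nr5a2 window shown held 2, from 217 to 212 and from 200 to 195 bases before the start. RefSeq has a second Nr5a2 start, whose window, chr1:136953631-136953880, held no GATA match and 1 SOX match, ACAAAG, from 175 to 170 bases before that start. The Esr2 window matched none of the 4 motifs. Among 32851 windows of this length before RefSeq starts, 9.99% held the GATA letters, 4.08% the NR5A half-site, 3.17% the forkhead core and 16.5% the SOX letters. Windows were taken here for 5 of the 10 genes, with Foxl2 and Cldn11 besides those shown. Gata6 was left out of this step by choice. The promoter set used held no window for Nr5a1, Wt1, Gata4 and Sox9. Whether RefSeq as a whole holds promoters for these genes was not checked.

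Nr5a1 (steroidogenic factor 1, a nuclear receptor that drives steroid synthesis) lies on the minus strand at chr2:38692656-38714542. It read 172, 163 and 143 CPM in scramble, 121 and 124 in pool 1, 142 and 146 in pool 2, 91.7 and 99.2 in pool 3, and 113 and 114 in pool 4. The libraries of pools 1, 3 and 4 all lay below all 3 scramble libraries, and those of pool 2 overlapped with them. How many of all genes share this pattern was not counted. Nr5a1 fell in pool 3 by 0.81 ± 0.10 (log2, SE; edgeR adjusted p = 0.002) and in pool 4 by 0.53 ± 0.10 (edgeR adjusted p = 0.0307). In pool 1 the difference was -0.43 ± 0.09 (edgeR adjusted p = 0.0662) and in pool 2 -0.14 ± 0.09 (edgeR adjusted p = 0.611). Without scramble replicate 1 it was -0.39, -0.10, -0.77 and -0.49 in pools 1 to 4, and pools 1, 3 and 4 were called. The pool 3 call held when any 1 of the 11 libraries was left out, with adjusted p of at most 0.04997, but not in a fit of only the pool 3 and scramble libraries (edgeR adjusted p = 0.142), whereas the pool 4 call ended without scramble replicate 2 or without any 1 of the 8 pool libraries, with adjusted p up to 0.329.

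Esr2 (oestrogen receptor beta, minus strand, chr12:76120419-76177259) had the widest range among the pools. It read 40.3, 74.7 and 76.6 CPM in scramble, 58.3 and 60.1 in pool 1, 76.5 and 81.9 in pool 2, 39.1 and 45.4 in pool 3, and 54.7 and 58.1 in pool 4. Scramble replicate 1 lay with pool 3, while scramble replicates 2 and 3 lay with pool 2. With all libraries, no difference from scramble was called; in pool 3 it was -0.67 ± 0.26 (edgeR adjusted p = 0.141). With scramble replicate 1 left out, Esr2 fell by 0.93 ± 0.06 in pool 3 (edgeR adjusted p = 6.84e-11), by 0.42 ± 0.06 in pool 1 and by 0.48 ± 0.06 in pool 4. In pool 2 the difference was then 0.05 ± 0.06, with a 95% interval of -0.06 to 0.16.

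Nr5a2 (liver receptor homolog 1, a receptor needed for ovulation, minus strand, chr1:136842571-136960448) read 35.9, 136 and 141 CPM in scramble, 128 and 119 in pool 1, 118 and 134 in pool 2, 111 and 109 in pool 3, and 125 and 126 in pool 4. Scramble replicate 1 was by far the lowest library, and the other 2 scramble libraries were above all 8 pool libraries, as for 5.29% of all genes. With all libraries the differences were 0.18, 0.26, -0.0015 and 0.21 in pools 1 to 4, each with an SE of 0.47, and none was called. In pools 1, 2 and 4 the sign turned when scramble replicate 1 was left out. Nr5a2 then fell by 0.23 in pool 1, by 0.42 in pool 3 and by 0.20 in pool 4, all called, and in pool 2 the difference was -0.16 ± 0.05 (edgeR adjusted p = 0.106). The direction for Nr5a2 in pools 1, 2 and 4 thus rests on whether that library is used. Its log2 difference from scramble replicates 2 and 3 was -1.99 for this gene, and 3.25% of the 2616 genes of the same length class lay lower.

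Foxl2 (plus strand, chr9:98955288-98958543, a gene of 1 exon) read 203, 142 and 142 CPM in scramble, 152 and 135 in pool 1, 144 and 157 in pool 2, 112 and 123 in pool 3, and 153 in both libraries of pool 4. The pool 3 libraries were below the other 9, and the remaining pools lay around scramble replicates 2 and 3. Among pool libraries alone, 16.9% of all genes had both pool 3 libraries below the other 6. The difference in pool 3 was -0.53 ± 0.16 (edgeR adjusted p = 0.0665), and without scramble replicate 1 it was -0.36 ± 0.06 (edgeR adjusted p = 1.95e-05). In pools 1, 2 and 4 it was then -0.05, 0.07 and 0.04, none of them called, whereas with that library it was -0.22, -0.11 and -0.13. Foxl2 shares 12 exonic bases with an antisense gene, Foxl2os, and for the counting step no strand setting is given in the sources used here.

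Gata4, the GATA factor of granulosa and Sertoli cells (minus strand, chr14:63198922-63271692) read 529, 684 and 635 CPM in scramble, 614 and 616 in pool 1, 669 and 665 in pool 2, 512 and 542 in pool 3, and 612 and 599 in pool 4. No difference was called with all libraries; without scramble replicate 1 Gata4 fell by 0.41 ± 0.04 in pool 3 (edgeR adjusted p = 6.83e-08), by 0.17 in pool 1 and by 0.19 in pool 4. Gata6, its relative on chromosome 18, stayed between 29.6 and 36.8 CPM in all 11 libraries and was called in none of the comparisons made here, with or without scramble replicate 1. Its largest difference from scramble without that library was -0.12 ± 0.07 in pool 3, with a 95% interval of -0.26 to 0.02. It shares 93 exonic bases with an antisense gene.

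Wt1 (a zinc finger factor of the early gonad, plus strand, chr2:105126529-105173616) read 101, 132 and 132 CPM in scramble, 133 in both libraries of pool 1, 151 and 145 in pool 2, 127 and 124 in pool 3, and 145 and 136 in pool 4. Scramble replicate 1 was the lowest of the 11. No pool was called with all libraries. Once scramble replicate 1 was left out, Wt1 fell by 0.16 ± 0.04 in pool 3 (edgeR adjusted p = 0.00397), and its difference in pool 2 was 0.15 ± 0.04 (edgeR adjusted p = 0.0621).

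**Figure D2:**
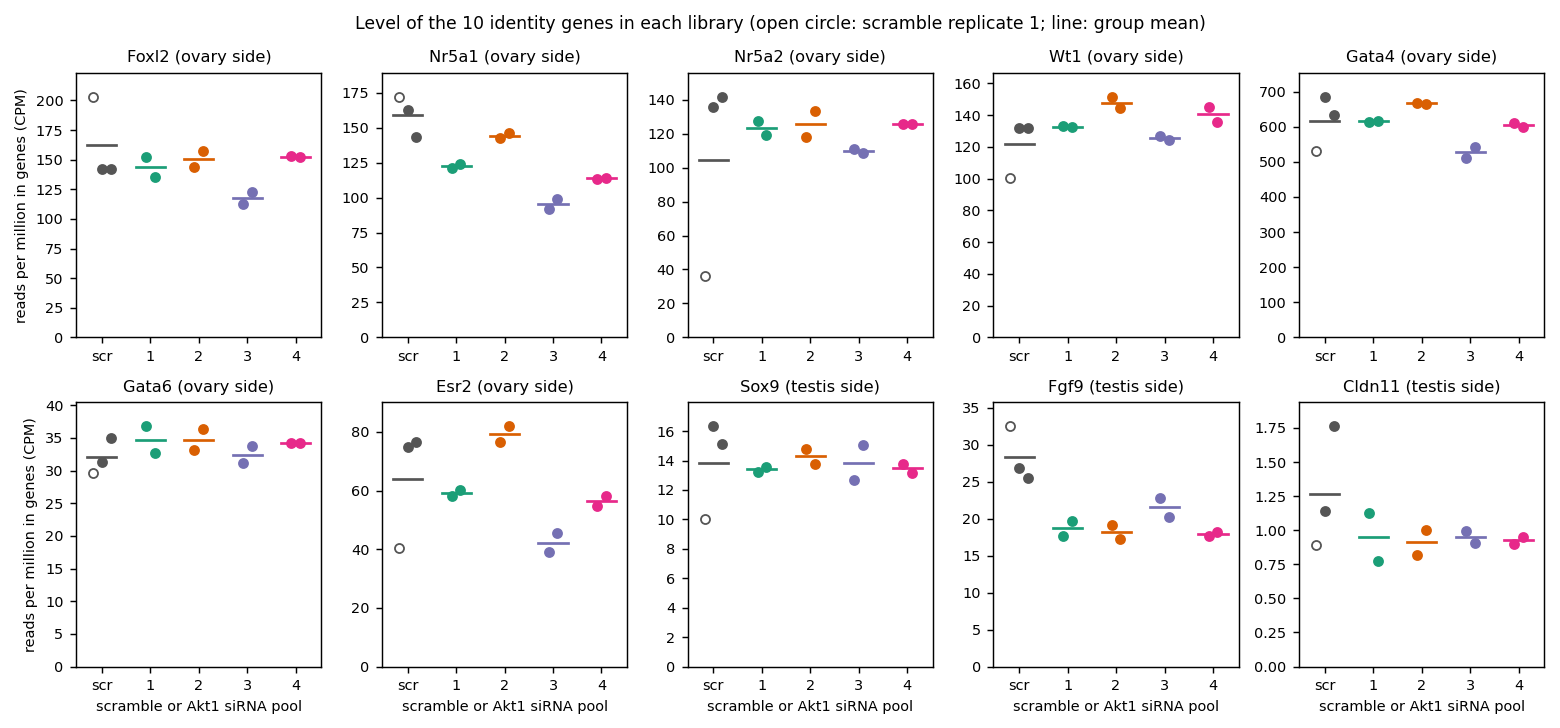
Each panel is 1 gene, with scramble (scr) and Akt1 siRNA pools 1 to 4 on the x axis and CPM on a linear y axis from 0; points are libraries, lines are group means and the open circle is scramble replicate 1. All 8 pool libraries of Fgf9 (17.2 to 22.8 CPM) lie below the 3 scramble libraries (25.5 to 32.5 CPM), whereas Nr5a1, Gata4 and Esr2 are lowest in pool 3 among the pools.

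On the testis side, Fgf9 was the 1 gene of the 10 whose 8 pool libraries all lay below all 3 scramble libraries. FGF9 is a secreted growth factor that acts mainly through FGFR2 in the gonad and antagonises WNT4 there; the gene lies on the plus strand at chr14:58070547-58112720. It read 32.5, 26.9 and 25.5 CPM in scramble, from 608 to 1060 reads, and 17.7 and 19.7 in pool 1, 19.2 and 17.2 in pool 2, 22.8 and 20.2 in pool 3, and 17.7 and 18.2 in pool 4. The same non-overlap was seen for 2.67% of the 14144 genes tested. Fgf9 fell by 0.65 ± 0.13 in pool 1 (edgeR adjusted p = 0.0431) and by 0.70 ± 0.13 in pool 4 (edgeR adjusted p = 0.0308). The difference in pool 2 was -0.63 ± 0.13 (edgeR adjusted p = 0.611) and in pool 3 -0.46 ± 0.12 (edgeR adjusted p = 0.0503).

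Leaving out scramble replicate 1, Fgf9 was called lower in all 4 pools, by 0.56, 0.54, 0.38 and 0.61 for pools 1 to 4. The calls in pools 1 and 4 with all libraries ended without scramble replicate 2 or without any 1 of the 8 pool libraries, with values of -0.73 to -0.56 in pool 1 and of -0.76 to -0.61 in pool 4 and adjusted p up to 0.386. For all pools together the difference was -0.61 ± 0.10 (edgeR adjusted p = 0.0833) with all libraries, and it was called without scramble replicate 1 (-0.52 ± 0.08, edgeR adjusted p = 0.0409), without scramble replicate 3 and without pool 2 replicate 2. In bulk libraries, fewer cells of a type and less RNA per cell cannot be told apart, here or for the other genes.

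Sox9 (plus strand, chr11:112782224-112787760), the factor that fixes Sertoli fate, read 10.0, 16.3 and 15.1 CPM in scramble and 12.6 to 15.1 CPM in the 8 pool libraries. The groups overlapped, and with all libraries no difference was called, with values of -0.10, 0.04, -0.06 and -0.08 in pools 1 to 4. All 8 pool libraries were below scramble replicates 2 and 3, as they were for Nr5a2, Fgf9 and Cldn11 and for 5.29% of all genes. When scramble replicate 1 was left out, Sox9 was called lower in pool 1 by 0.30 ± 0.09, in pool 3 by 0.27 ± 0.09 and in pool 4 by 0.29 ± 0.09. The value in pool 2 was then -0.16 ± 0.09 (edgeR adjusted p = 0.4).

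Cldn11 (plus strand, chr3:31149920-31164324), a claudin of the tight junctions between Sertoli cells, had the fewest reads of the 10. It was counted 29, 31 and 42 times in scramble and 23 to 35 times in a pool library, which is 0.888 to 1.76 CPM and 0.776 to 1.12 CPM. Its differences from scramble were -0.44 to -0.47 in the 4 pools with an SE of 0.31 to 0.32, and none was called. They were -0.65 to -0.69 without scramble replicate 1, and 1 was called, in pool 3 (edgeR adjusted p = 0.0469). Leaving out scramble replicate 3, its highest library, moved the Cldn11 differences the other way, to -0.13, -0.14, -0.15 and -0.16 in pools 1 to 4, none of them called. At this depth smaller differences of Cldn11 were not detectable.

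**Figure D3:**
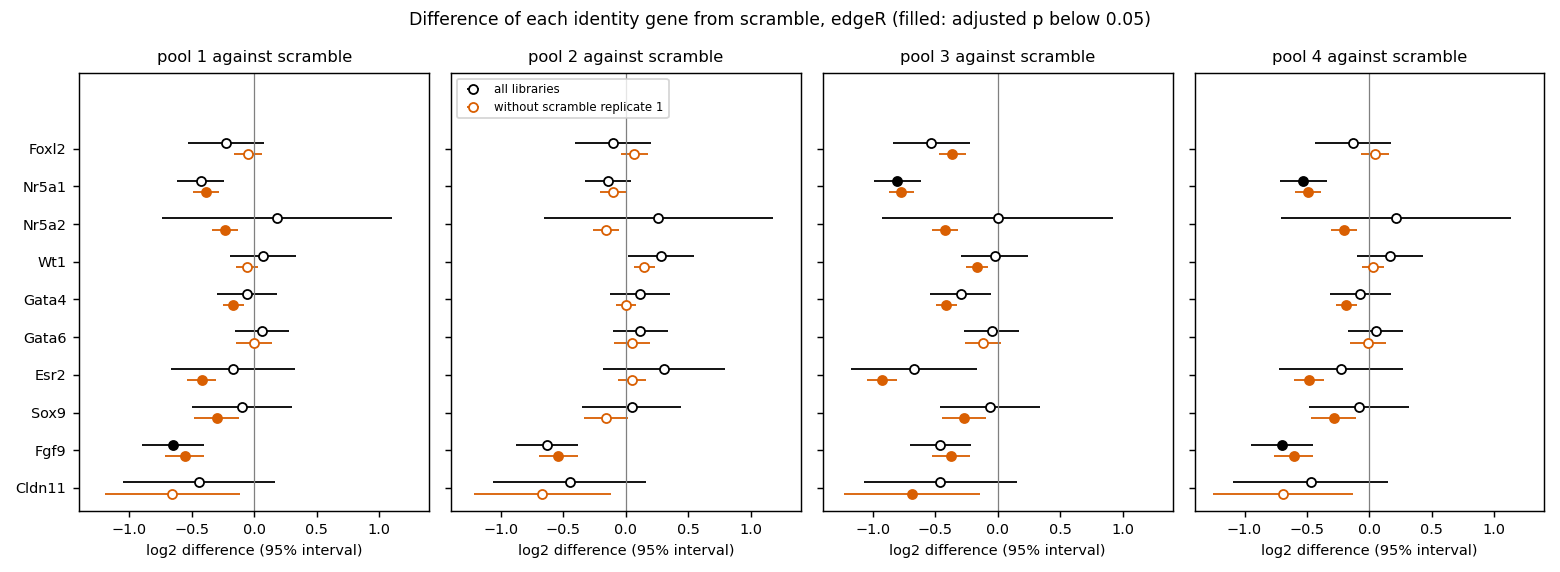
Each panel compares 1 Akt1 siRNA pool with scramble. The x axis is the log2 difference with bars of the approximate 95% interval (1.96 SE to each side). Filled points have an edgeR adjusted p below 0.05. Black uses all libraries and orange leaves out scramble replicate 1; Nr5a2 is near 0 or above with wide bars in black, and below 0 in all 4 pools in orange.

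Counted over the 10 genes, 0 were called when all 8 pool libraries were compared with scramble in 2 groups, where 0.00707% of all genes were called (1 gene, Akt1); 3 of the 10 (Nr5a1, Fgf9 and Cldn11) had an unadjusted p below 0.05, as did 28.6% of all genes, and DESeq2 called 1 (Fgf9), beside 8.44% of the 13587 genes to which it gave an adjusted p. Left without scramble replicate 1, that comparison called 1 of the 10 (Fgf9) and 0.469% of all genes. An equal-weight mean of the pools, from the fit with 5 groups, called 2 of the 10 (Nr5a1 and Fgf9) and 6.37% of all genes, and 7 of the 10 and 35.8% of all genes without scramble replicate 1; that last fit was added after the data were seen. With all libraries, pool 1 had 1 of the 10 called (Fgf9), where 1.93% of all genes were called and 1.47% were called lower. Pool 2 had 0 (0.00707% of all genes); 1 of the 10, Fgf9, had an unadjusted p below 0.05, as did 4.62% of all genes, and DESeq2 called that gene, beside 0.198% of all genes. For pool 3 the count was 1 (Nr5a1), beside 11.2% of all genes called and 6.84% called lower, and for pool 4 it was 2 (Nr5a1 and Fgf9), beside 2.57% and 1.99%.

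The counts without scramble replicate 1 were 6, 1, 9 and 6 of 10 for pools 1 to 4, beside 28.8%, 4.39%, 48.8% and 31% of all genes. Every one of these called differences was downward, while 17%, 2.69%, 26.1% and 17.8% of all genes were called lower in pools 1 to 4. Pools 1 and 4 called the same 6 genes: Nr5a1, Nr5a2, Gata4, Esr2, Sox9 and Fgf9. Pool 3 called these and Foxl2, Wt1 and Cldn11. The median difference over the 10 genes was -0.27, -0.05, -0.39 and -0.25 in pools 1 to 4, beside a median near 0.00 to 0.01 over all genes. The 4 comparisons share their scramble libraries, so these counts are not independent of each other.

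The pools differed from each other, a comparison that scramble enters only through the shared estimate of spread. Nr5a1 differed among the 4 pools (highest minus lowest pool 0.66 on the log2 scale, edgeR adjusted p = 0.04997), the 1 gene of the 10 so called with all libraries, where 2.46% of all genes were called. Its value with each library left out was 0.61 to 0.72, and adjusted p rose to as much as 0.414: the call was kept without scramble replicate 1 or 3 and ended without scramble replicate 2 or any 1 of the 8 pool libraries. With scramble replicate 1 left out, 6 of the 10 differed among pools, as did 42.8% of all genes: Foxl2 (0.43), Nr5a1 (0.67), Nr5a2 (0.27), Wt1 (0.31), Gata4 (0.41) and Esr2 (0.97). A fit to the 8 pool libraries alone, also added after the data were seen, called the same 6 genes, beside 48.6% of all genes. Gata6, Sox9, Fgf9 and Cldn11 were not called in either, with ranges of 0.17, 0.14, 0.23 and 0.03 without scramble replicate 1.

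Among pools, pool 2, without siRNA 7, had the highest mean CPM and pool 3 the lowest for Nr5a1, Nr5a2, Wt1, Gata4 and Esr2. The other genes did not follow this order. Foxl2 was highest in pool 4 and Fgf9 in pool 3, and Cldn11 was lowest in pool 2. Both libraries of pool 2 were above the other 6 pool libraries for Nr5a1, Gata4 and Esr2, a pattern shown by 18.7% of all genes. Against the mean of the other pools, Nr5a1 rose in pool 2 by 0.44 ± 0.08 (edgeR adjusted p = 0.0185), the 1 gene of the 10 called with all libraries, beside 5.25% of all genes, 3.95% upward; Esr2 was 0.66 ± 0.22 (edgeR adjusted p = 0.147). The Nr5a1 call was kept without each scramble library in turn and ended without any 1 of the 8 pool libraries (0.43 to 0.46, adjusted p up to 0.234). When scramble replicate 1 was left out, 6 genes were called higher in pool 2, where 43.7% of all genes were called and 23.5% were called higher: Esr2 by 0.66 ± 0.05, Nr5a1 by 0.45 ± 0.04, Gata4 by 0.25, Wt1 by 0.21, Foxl2 by 0.19 and Nr5a2 by 0.13. With the 8 pool libraries alone the same 6 were called higher, where 47.6% of all genes were called and 25.3% were called higher. Fgf9 did not follow: it was -0.03 ± 0.07 without scramble replicate 1, with a 95% interval of -0.16 to 0.10.

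Both libraries of pool 3 were below the other 6 pool libraries for 6 genes, Foxl2, Nr5a1, Nr5a2, Wt1, Gata4 and Esr2, as were 16.9% of all genes. For Fgf9 they were above the other 6, as for 24.8% of all genes. Pool 3 was also the pool with the most remaining Akt1 mRNA, 79.3 and 81.7 CPM against 52.7 to 63.9 in the other pools, and pool 2 had 52.7 and 55.1. The part of the remaining Akt1 level, or of the siRNAs each pool holds, in these differences was not tested.

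**Figure D4:**
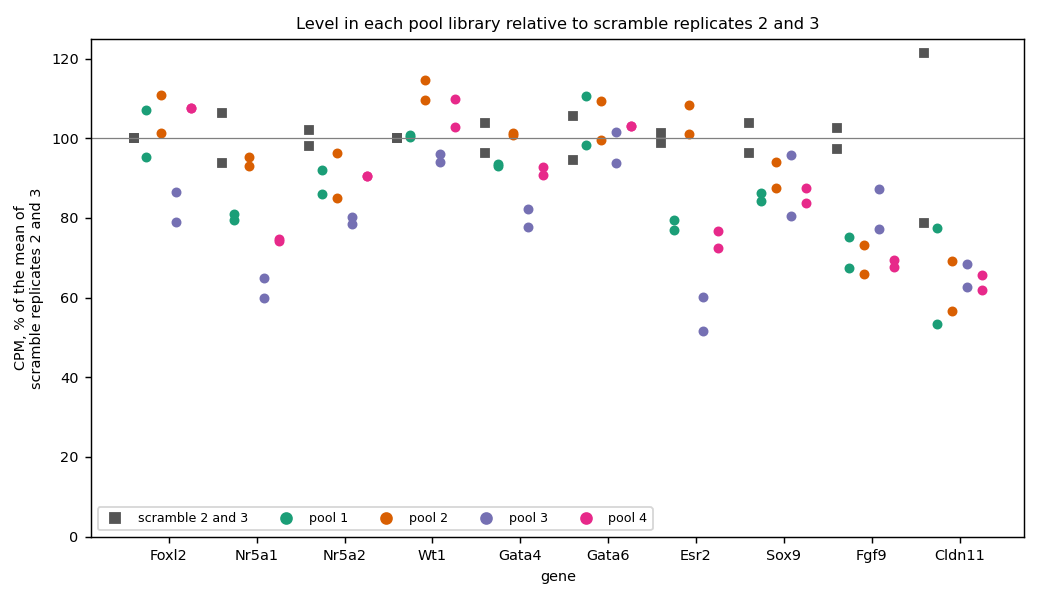
Points are single pool libraries and squares are scramble replicates 2 and 3, with the gene on the x axis and CPM as a percentage of the mean of those 2 scramble libraries on the y axis. Nr5a1 averages 94.2% in pool 2 and 62.4% in pool 3, Esr2 105% and 55.9%, while Fgf9 averages 69.6% in pool 2 and 82.2% in pool 3.

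Across the 10 libraries without scramble replicate 1, log2 CPM of Nr5a1, Gata4 and Esr2 ran together, with r = 0.978 for Nr5a1 and Gata4, 0.972 for Gata4 and Esr2 and 0.969 for Nr5a1 and Esr2. These libraries share the grouping into pools, so the values describe the pool pattern. Fgf9 was less like them, with r of 0.387, 0.222 and 0.227 to Nr5a1, Gata4 and Esr2. With scramble replicate 1, r for Nr5a1 and Esr2 was 0.569.

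Among candidates whose mean log2 CPM reached 2, those most like each gene over the same 10 libraries were Plod3 and Capns1 for Nr5a1 (r = 0.995 and 0.994), Sppl3 and H6pd for Esr2 (0.996 and 0.995) and Arhgap1 and Man2b2 for Gata4 (0.993 and 0.992). They were Golph3 and Yeats4 for Foxl2 (0.954 and 0.953), Postn and P4ha2 for Nr5a2 (0.972 and 0.971), Rab23 and Ppic for Wt1 (0.959 and 0.954), and Esr1 and Fbxo33 for Gata6 (0.9 and 0.883). For the testis side they were Rassf3 and Polr2g for Fgf9 (0.949 and 0.948), Tmem216 and Hoxc5 for Sox9 (0.957 and 0.926), and Atf2 and Arrdc3 for Cldn11 (0.959 and 0.958). Each was taken from 10752 candidates (10753 for Cldn11), and several lost the likeness with scramble replicate 1, such as Golph3, whose r with Foxl2 was then -0.362.

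Related gene lists were counted beside the 10 genes. Of 17 further ovary-side genes, 15 were tested. With all libraries the numbers that fell in pools 1 to 4 were 2, 0, 6 and 3, and 0 rose, where 1.47%, 0.00707%, 6.84% and 1.99% of all genes were called lower. In pool 3 these included Hsd17b1, which makes oestradiol, by 1.37 ± 0.21 (edgeR adjusted p = 0.00532) and Fst, the activin antagonist follistatin, by 1.31 ± 0.14 (edgeR adjusted p = 0.00134). Fst fell in pools 1 and 4 as well, Inhbb, an inhibin beta subunit, fell in pools 1, 3 and 4, Hsd17b1 also in pool 4, and Wnt4, the ovarian WNT ligand that FGF9 antagonises, fell in pool 3 by 1.10 ± 0.27 (edgeR adjusted p = 0.0368). Wnt4 read 251 CPM in scramble replicate 1, 127 and 128 in replicates 2 and 3 and 81.9 on average in pool 3, and without replicate 1 the fall was smaller, by 0.73 ± 0.05. Hsd17b1 and Fst then fell in pool 3 by 1.13 ± 0.06 and 1.28 ± 0.09. Inhbb in pool 3 and Wnt4 were named after their values were seen. Without scramble replicate 1, 6, 2, 8 and 5 of the 15 were called lower in pools 1 to 4, and 1, 0, 1 and 0 higher, beside 17%, 2.69%, 26.1% and 17.8% of all genes called lower. Against the other pools, Fst rose in pool 2 by 0.99 ± 0.11 and Inhbb by 0.55 ± 0.07.

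NR5A target genes are those whose promoters NR5A1 or NR5A2 are known to bind, many of them steroid-making. Of 14, 12 were tested, and 5 fell in pool 3, where 6.84% of all genes were called lower, against 0 in pools 1, 2 and 4, with 0 that rose. The 5 were Nr0b2, the repressor SHP, by 1.62 ± 0.31 (edgeR adjusted p = 0.0151) and Inha by 1.09 ± 0.19 (edgeR adjusted p = 0.0104), and, named after their values were seen, Hsd3b1, Cyp19a1 and Scarb1. Over the 12 tested, the median difference was -0.32, -0.39, -0.70 and -0.38 in pools 1 to 4, beside -0.03 to -0.0053 over all genes. It was -0.23, -0.27, -0.47 and -0.34 without scramble replicate 1. In pool 3, Nr0b2 and Inha then fell by 1.22 ± 0.13 and 0.87 ± 0.05. Star, the steroidogenic acute regulatory protein that carries cholesterol into mitochondria, fell in pool 2 against the other pools, by 0.56 ± 0.09 (edgeR adjusted p = 0.0108), the opposite direction to Nr5a1. Without scramble replicate 1, 5, 5, 7 and 6 of 11 tested were called lower in pools 1 to 4, and 2, 0, 1 and 1 higher, where 17%, 2.69%, 26.1% and 17.8% of all genes were called lower. Inha, Cyp19a1, Amhr2 and Nr0b1 stand in both lists.

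The testis-side list had a median difference of 0.00086, -0.21, -0.14 and -0.21 in pools 1 to 4, which was -0.05, -0.08, -0.09 and -0.04 without scramble replicate 1. Of 24 listed beside Sox9, Fgf9 and Cldn11, 17 were tested. With all libraries 1 was called in a pool against scramble, beside 1.93%, 0.00707%, 11.2% and 2.57% of all genes in pools 1 to 4. Mro, a testis-enriched gene, rose in pool 3 by 0.36 ± 0.09 (edgeR adjusted p = 0.0389). Its level was 10.4 to 11.5 CPM in scramble and 14.5, 10.2, 14.9 and 14.7 CPM on average in pools 1 to 4. Sox8, a close relative of Sox9, rose in pool 2 against the other pools by 0.72 ± 0.16 (edgeR adjusted p = 0.0351), and Mro fell in that comparison by 0.47 ± 0.08. With scramble replicate 1 left out, 3, 1, 4 and 3 of the 17 were called lower in pools 1 to 4, and 3, 1, 3 and 3 higher. Over all genes 17%, 2.69%, 26.1% and 17.8% were called lower, and nothing is read from these counts about the list.

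Genes near Fgf9 and Cldn11 in function were also counted. Of 13 FGF receptors and feedback genes, all tested, 0 were called in any pool with all libraries. Over all genes 1.93%, 0.00707%, 11.2% and 2.57% were then called in pools 1 to 4. Fgfr2, the receptor of FGF9 in the gonad, named after its values were seen, had a difference of -0.01 ± 0.13 over all pools, which was -0.19 ± 0.07 without scramble replicate 1. Dusp6 and Spred1, feedback genes of the pathway, read 248 to 334 and 66.2 to 147 CPM over all libraries. When scramble replicate 1 was left out, 4, 2, 6 and 3 of the 13 were called lower in pools 1 to 4, and 3, 2, 2 and 3 higher, beside 28.8%, 4.39%, 48.8% and 31% of all genes called in either direction. Of 14 junction genes, 13 were tested. F11r, the junctional adhesion molecule A, fell in pools 1, 3 and 4, by 1.20 ± 0.09, 1.52 ± 0.10 and 1.24 ± 0.09. In pool 3, 4 junction genes fell, with Cldn15 next by 1.44 ± 0.26, and 2 rose, Cldn1 by 2.12 ± 0.20 and Cldn12 by 0.55 ± 0.14, where 11.2% of all genes were called. With scramble replicate 1 left out, F11r fell in these pools by 1.14, 1.47 and 1.18, and in pool 3 Cldn15 fell by 1.19 while Cldn1 and Cldn12 rose by 1.94 and 0.40. The junction genes called were then 4, 1, 8 and 5 of 13 in pools 1 to 4, beside the same 28.8%, 4.39%, 48.8% and 31%. Of 12 early gonad genes, 11 were tested. With all libraries 0 were called in any pool, beside 1.93%, 0.00707%, 11.2% and 2.57% of all genes in pools 1 to 4. The counts without scramble replicate 1 were 3, 2, 3 and 2, beside 28.8%, 4.39%, 48.8% and 31% of all genes. Insr, the insulin receptor, had a difference of 0.47 ± 0.21 over all pools, which was 0.14 ± 0.06 without scramble replicate 1.

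**Figure D5:**
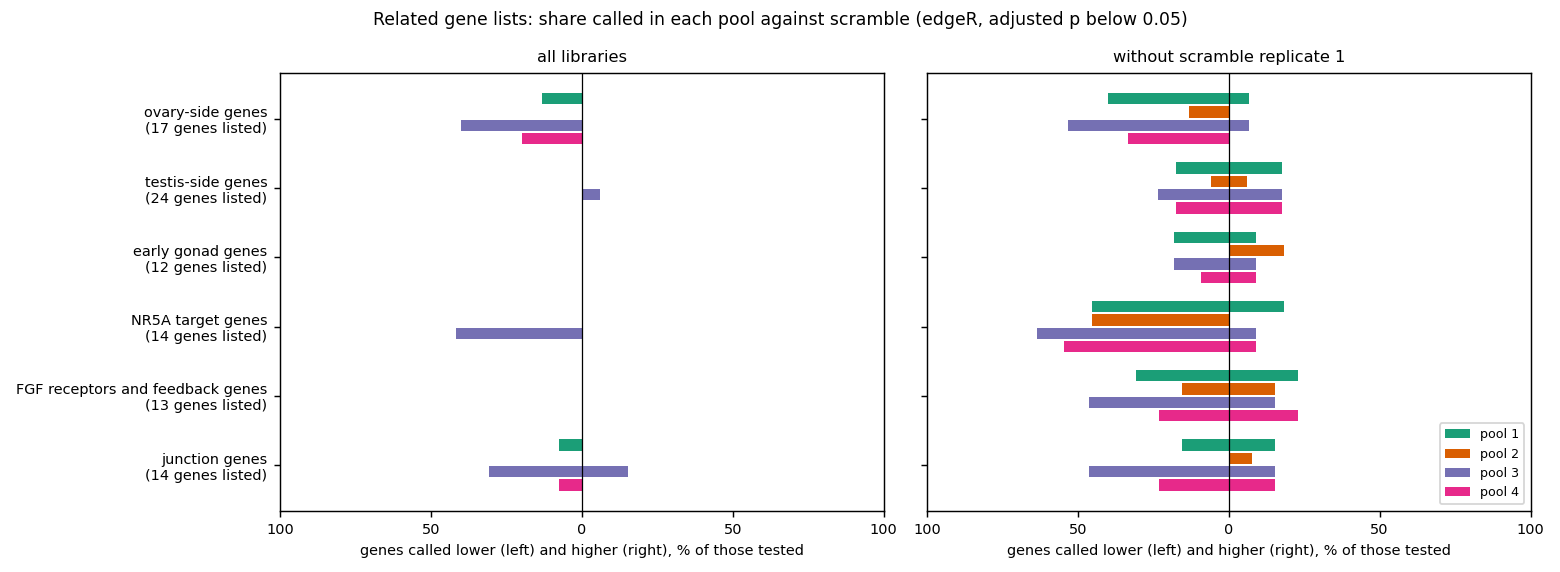
Bars give, for 6 related gene lists, the share of tested genes called lower (left) and higher (right) than scramble in each Akt1 siRNA pool, with all libraries (left panel) and without scramble replicate 1 (right panel). With all libraries pool 3 has 6 of 15 ovary-side genes and 5 of 12 NR5A target genes lower; without scramble replicate 1 all 6 lists have genes called lower, and bars point both ways in most.

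Marker sums of cell types also differed between the pools. The summed granulosa markers read 3309 to 3452 CPM in pool 1, 3935 to 4286 in pool 2, 2515 to 2681 in pool 3 and 3103 to 3374 in pool 4, below the 4465 to 5681 CPM of scramble in every pool library. This sum holds Foxl2, Nr5a2 and Esr2, but its largest members in scramble were Inha (2128 to 3486 CPM) and Serpine2 (1287 to 1552 CPM). Not every member moved as the sum did. Amhr2 read 137.5, 83.2 and 83.9 CPM in scramble replicates 1 to 3, and 100.7, 80.6, 87.8 and 93.3 on average in pools 1 to 4. Surface epithelium markers, of which 5 of 6 were among the counted genes and detected, summed to 112 to 144 CPM in scramble and to 72.3 to 74.1 in pool 3. Of the 5, 3 fell in pool 3, where 6.84% of all genes were called lower. Upk3b fell there by 0.98 ± 0.09 (1.05 ± 0.05 without scramble replicate 1). Theca and stroma markers, 12 of 12 detected, summed to 331 to 418 CPM in scramble and 292 to 300.5 in pool 3. Endothelial (13.2 to 14.3 CPM in scramble, 13.3 to 19.3 in the pools), immune (5.71 to 9.53 and 5.84 to 9.56) and oocyte markers (5.41 to 8.09 and 2.89 to 5.70) were low throughout. Members of 1 list differed widely in level. Cyp17a1 of theca cells read at most 0.46 CPM, whereas Dcn of the theca and stroma list read 109.8 to 204 CPM. Zp3 of oocytes read at most 0.0919 CPM, and Ddx4 of the oocyte list 1.84 to 6.28 CPM. Wt1 is also known in surface epithelium and Gata4 in theca cells. The part of these cell types in the differences of the 10 genes was not tested.

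In the authors' deposited table, which compares all pools with scramble, 2 of the 10 genes had an adjusted p below 0.05, beside 9.72% of the 10136 genes with an adjusted p there. Fgf9 was listed in the authors' deposited table with -0.58 ± 0.10 (log2, SE; adjusted p = 3.52e-06, DESeq2 per the submitters' processing notes) and Nr5a1 with -0.41 ± 0.14 (adjusted p = 0.0484). Nr5a2 was listed in the authors' deposited table with 0.12 ± 0.22 and no p-value, and the other 7 genes had adjusted p of 0.2 or more there.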

How the data were processed

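Polyadenylated RNA of 11 libraries was sequenced with a strand-preserving kit, per the labels' protocols. The authors deposited raw counts per gene symbol, made with TopHat2 and featureCounts 1.5.0-p2 on build mm10 after cutadapt 1.9.1, per the submitters' processing notes. The authors' table, as deposited, holds for all pools together against scramble a mean signal (normalised counts over libraries), log2 fold changes with standard errors, a score (the test statistic) and p-values, from DESeq2 per the submitters' processing notes, and was used only where named.

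From the counts, 92 spike-in rows were left out and CPM was computed over the 24490 genes. The main test was edgeR 4.0.16 (R 4.3.3): TMM scaling, filterByExpr (14144 genes kept, 14062 without scramble replicate 1), glmQLFit, glmQLFTest and Benjamini-Hochberg adjustment over all genes kept. All pools against scramble was fitted with 2 groups and the other comparisons with 5 groups. Standard errors were derived from the log2 difference and its F value. The 95% intervals are approximate, reaching 1.96 SE (a normal quantile) to each side. They can be narrower than the F test implies. For Wt1 in pool 2 with all libraries the interval was 0.02 to 0.54, with an unadjusted edgeR p of 0.0684. The script was tested on simulated counts with the same spread in every library and no library like scramble replicate 1. That test checks the code only, not how the calls behave in these data. Alternatives were RLE scaling, library size only, no filter, DESeq2 1.42.0, limma-voom (limma 3.58.1), a minimum CPM of 1 in every library, a replicate block, other sets of libraries, and each library left out in turn.

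The 10 genes and the related lists were chosen with earlier results of these data known. Always named were the 10 genes and Akt1, with up to 2 genes per list called in each direction by size, or else the 2 most abundant, and the 2 genes most like each of the 10 by correlation (mean log2 CPM of at least 2, predicted and mitochondrial genes left out). Same-group libraries differed by more than sampling noise (chi-square per degree of freedom 2.63 to 6.25, and 273 and 294 for pairs with scramble replicate 1). Each library was counted as 1 sample. This excess cannot tell whether libraries came from separate cultures or animals, so their independence is assumed.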

Additional observations from a re-analysis of the deposited data

Results flagged for a closer look

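Nr5a1 differed between the siRNA pools, in comparisons that scramble enters only through the shared estimate of spread. The highest and lowest pool were 0.662 apart on the log2 scale (pool 2 and pool 3), and pool 2 was higher than the mean of the other pools by 0.445; both differences were tested in the fit of all 11 libraries, with edgeR adjusted p of 0.04997 and 0.0185. Both calls end when any 1 of the 8 pool libraries is left out. Nr5a1 was 142 and 146 CPM in pool 2 and 91.7 and 99.2 CPM in pool 3.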

How the results depend on the processing

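Of 1333 differences of the 10 genes under alternatives, 1158 kept their direction and their side of the threshold, 60 lost a call, 58 gained one and 57 changed sign, 38 of them with 1 library left out. For all pools, the genes called of 10 (0 in the report) were 1 with DESeq2, 1 with the replicate block, 2 with an equal-weight mean of the pools from the 5-group fit, 7 with that mean without scramble replicate 1, and 0 to 1 with each library left out. In pool 1 (1) they were 0 by library size, 0 with no filter, 2 with DESeq2, 0 with the block, 0 with only the pool and scramble libraries and 0 to 6 with a library left out. In pool 2 (0) they were 1 with DESeq2 and 0 to 1. In pool 3 (1) they were 2 with RLE scaling, 2 with CPM above 1, 3 with DESeq2, 2 with limma-voom, 0 with only the pool and scramble libraries and 1 to 9. In pool 4 (2) they were 0 by library size, 1 with no filter, 0 with the block, 0 with only the pool and scramble libraries and 0 to 6. Among the pools (1) they were 0 by library size, 0 with no filter, 0 with limma-voom, 0 with the block, 6 with only the 8 pool libraries and 0 to 6. For pool 2 against the others (1) they were 6 with only the 8 pool libraries and 0 to 6. The highest counts came without scramble replicate 1. The cause was not tested, beyond fewer libraries where only a pool and scramble were fitted.

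All genes called moved more: for all pools from 1 to 2 with RLE scaling, 2 with no filter, 1147 with DESeq2, 1649 with the block, 901 with the 5-group mean, 5034 with that mean without scramble replicate 1 and 1 to 2336 with a library left out. In pool 1, 273 became 788 with DESeq2, 96 with the block and 9 to 4044. In pool 2, 1 became 2 by library size, 28 with DESeq2 and 1 to 618. In pool 3, 1580 became 210 to 6864. In pool 4, 363 became 872 with DESeq2, 151 with the block and 17 to 4364. Among the pools, 348 became 1072 with DESeq2, 146 with the block, 6835 with only the 8 pool libraries and 6 to 6017, and for pool 2 against the others 743 became 1275, 6692 with only the 8 pool libraries and 111 to 6149. With only a pool and scramble, 0 genes were called in each pool.

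Beside the left-out libraries, these signs changed. Without scramble replicate 1, the equal-weight pool mean was -0.26 for Nr5a2, -0.012 for Wt1 and -0.021 for Gata6. In pool 3, Nr5a2 was 0.075 by library size, 0.0059 with no filter, 0.0068 with CPM above 1, 0.24 with limma-voom and 0.40 with the block; Wt1 was 0.045 by library size and 0.048 with the block, Gata6 0.020 and 0.028, and Sox9 0.0064 and 0.024. The block also gave 0.045 for all pools in Esr2 and in Sox9, 0.030 for Esr2 in pool 1 and 0.013 for Sox9 in pool 4. Cldn11 in pool 2 against the others was -0.048 by library size.

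With each library left out, the ranges that crossed 0 were these. For all pools: Nr5a2 -0.25 to 0.45, Wt1 -0.0079 to 0.20, Gata4 -0.18 to 0.017, Gata6 -0.023 to 0.12, Esr2 -0.41 to 0.0087 and Sox9 -0.25 to 0.094. Pool 1: Nr5a2 -0.23 to 0.47, Wt1 -0.059 to 0.14, Gata4 -0.17 to 0.031, Gata6 -0.024 to 0.15 and Sox9 -0.30 to 0.045. Pool 2: Foxl2 -0.19 to 0.068, Nr5a2 -0.16 to 0.55, Gata4 -0.00068 to 0.20 and Sox9 -0.16 to 0.19. Pool 3: Nr5a2 -0.42 to 0.28, Wt1 -0.16 to 0.045, Gata6 -0.12 to 0.028 and Sox9 -0.27 to 0.079. Pool 4: Foxl2 -0.21 to 0.044, Nr5a2 -0.20 to 0.50, Gata4 -0.19 to 0.015, Gata6 -0.014 to 0.13 and Sox9 -0.29 to 0.059. Pool 2 against the others: Fgf9 -0.11 to 0.046 and Cldn11 -0.14 to 0.15.

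Replicate numbers were not treated as pairs: deviations of same-numbered libraries correlated between -0.0501 and 0.0786, so the block is given only as another fit. With 2 libraries per pool, and 23 to 42 reads of Cldn11, small differences were not detectable.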
